A study of Mus musculus with 15 samples.

Results

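The HoxA genes described here are Hoxa2, Hoxa3, Hoxa4, Hoxa5, Hoxa6, Hoxa7, Hoxa9, Hoxa10, Hoxa11 and Hoxa13, taken by their symbols from a table of 36814 mouse genes. The 10 symbols matched 11 rows, because Hoxa3 is listed under a pair of gene models. RNA was sequenced from spinal motor neurons of wild-type mice at postnatal day 6, in 5 motor pools with 3 libraries each, 15 libraries in all. A motor pool is the group of motor neurons that innervates 1 muscle, and 5 sets of hindlimb muscles were traced. TA stands for tibialis anterior and EDL for the long toe extensor, extensor digitorum longus. PL is peroneus longus, GS is gastrocnemius, and IF is the set of small muscles within the foot. Each muscle had been injected at postnatal day 4 with cholera toxin B subunit coupled to the dye Alexa 555 (CTB-555), a tracer that motor axons carry back to the cell body, and all animals carried this injection. No uninjected or untraced motor neurons were among the groups. A library pooled 30 to 40 laser-captured cells from 2 to 5 animals, so it is a mean over few neurons, and a captured profile in a 12 µm section can hold parts of neighbouring cells. The libraries are labelled as biological replicates, but no label ties a library to its animals. The p-values below rest on the spread between these libraries, estimated per gene over all 5 pools and not within 1 pool.

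Hox genes encode homeodomain transcription factors that lie in 4 clusters and are expressed along the body axis in the order of their position in the cluster. In the spinal cord they are known for setting the columnar and pool identity of motor neurons, together with cofactors of the Pbx and Meis families. Genes of the Hoxa5, Hoxa6 and Hoxa7 paralog groups are best known at brachial levels, those of the Hoxa9 group at thoracic levels, and those of the Hoxa10 and Hoxa11 groups at the lumbar levels that hold the hindlimb pools studied here.

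Totals ran from 4417114 to 8488368 reads on genes per library. PL 2 and PL 3 stood apart from the other 13 libraries: 11019 and 10548 genes had reads in them, and 25.7% and 29.2% of the tested genes were at 0, against 0.732% to 13.7% elsewhere. Results that rest on PL are therefore given for each PL library. The motor neuron genes Chat (66.2 to 495 CPM), Slc5a7 (706 to 1910 CPM) and Prph (384 to 2200 CPM) had reads in all 15 libraries. Mnx1, another motor neuron gene, also had reads in all 15, but at 1.76 to 35.1 CPM. CPM is counts per 1e+06 reads of a library after TMM scaling, which adjusts the library totals for composition. Fewer cells that use a gene and less RNA of it per cell cannot be told apart in such pooled libraries.

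All 11 rows lie on the minus strand of chromosome 6 in mm9, the build of the deposited coordinates. They run from Hoxa2 (chr6:52112416-52114831), at the end of the cluster used in anterior tissue, to Hoxa13 (chr6:52207693-52210875), at the end used in posterior tissue. The longer Hoxa3 model (ENSMUSG00000079560, chr6:52119061-52163336) spans the models of Hoxa4, Hoxa5 and Hoxa6, and the shorter one (ENSMUSG00000059723, chr6:52149150-52163336) spans those of Hoxa5 and Hoxa6. Reads of these overlapping genes cannot be assigned with certainty, since no source used here gives the treatment of overlaps in counting. In PL 3 (replicate 3 of PL), Hoxa5 had 1151 reads, Hoxa6 had 1300 and both Hoxa3 models had 0. The reads of Hoxa5 and Hoxa6 in that library were thus not also counted for Hoxa3. The kit does not mark the strand of the RNA.

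RefSeq promoter windows were found for 9 of the 10 genes, with 2 windows for Hoxa10. Below are the 250 bases before the start of Hoxa3, Hoxa6 and Hoxa9, the genes whose level in PL passed the test, and of Hoxa7, which lies between Hoxa6 and Hoxa9 and did not. Coordinates are on GRCm38.p6, which is a different build from that of the gene models above, and bases run 5′ to 3′ on the gene's strand. Capitals mark CCAAT or TTTATG on either strand.
Hoxa3 promoter, chr6:52213068-52213317, - strand: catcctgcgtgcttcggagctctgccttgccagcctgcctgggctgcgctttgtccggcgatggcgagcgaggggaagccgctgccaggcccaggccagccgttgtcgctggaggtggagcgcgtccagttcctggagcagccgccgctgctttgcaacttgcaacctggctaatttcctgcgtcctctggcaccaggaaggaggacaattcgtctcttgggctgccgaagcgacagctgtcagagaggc
Hoxa6 promoter, chr6:52208673-52208922, - strand: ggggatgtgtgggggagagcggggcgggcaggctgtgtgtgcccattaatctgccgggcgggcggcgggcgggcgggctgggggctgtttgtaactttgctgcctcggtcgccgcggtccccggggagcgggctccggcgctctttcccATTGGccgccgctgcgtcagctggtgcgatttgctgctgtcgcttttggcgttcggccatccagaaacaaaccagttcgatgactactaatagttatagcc
Hoxa7 promoter, chr6:52218574-52218823, - strand: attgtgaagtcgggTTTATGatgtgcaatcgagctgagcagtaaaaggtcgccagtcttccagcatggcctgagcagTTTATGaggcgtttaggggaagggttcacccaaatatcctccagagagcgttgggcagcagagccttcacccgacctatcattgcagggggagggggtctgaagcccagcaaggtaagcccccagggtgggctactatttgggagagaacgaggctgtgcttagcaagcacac
Hoxa9 promoter, chr6:52227371-52227620, - strand: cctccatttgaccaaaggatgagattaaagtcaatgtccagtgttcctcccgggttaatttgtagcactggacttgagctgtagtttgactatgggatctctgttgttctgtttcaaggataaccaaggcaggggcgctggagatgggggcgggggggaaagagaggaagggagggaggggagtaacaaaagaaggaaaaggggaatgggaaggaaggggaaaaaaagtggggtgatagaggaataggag
The search covered 5 short motifs on both strands, and no matches of different motifs overlapped in the 10 windows. CCAAT, the CCAAT box, was found in the windows of Hoxa2, Hoxa5, Hoxa6, Hoxa13 and the downstream Hoxa10 start, and 33.8% of 32851 mouse windows of this length hold it. TTTATG, the core read by caudal factors, was found in the Hoxa7 window alone, at 2 positions, against 10.8% of all windows. TATAAA, the TATA box, was found in the downstream Hoxa10 window, against 12.4% of all windows. TAATTA, a homeodomain core that 4.84% of all windows hold, was found in none of the 10. Nor was AGGTCA, the core of many nuclear receptor sites, which 14% of all windows hold. The windows of Hoxa3 and Hoxa9 held none of the 5 motifs. Their CG content differed: the Hoxa6 and Hoxa3 windows held 24 and 18 CG dinucleotides, the Hoxa7 and Hoxa9 windows 7 and 3, and the median window 6. These are matches of letters, and no binding was measured.

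Hoxa6, Hoxa9 and Hoxa3 were higher in PL than in the other 4 pools, and the 2 genes with a fitted level below that of the other pools, Hoxa7 and Hoxa10, did not pass the test. Hoxa6 averaged 158 ± 139 CPM in PL (SD, n = 3) against 2.05 to 19.3 CPM in the other pools. The height of Hoxa6 came from PL 2 and PL 3, that of Hoxa9 from PL 2, and that of Hoxa3 from PL 1 and PL 2. In TA, EDL, GS and IF no HoxA gene passed the test against the other 4 pools. Differences were tested over 14340 genes with edgeR (quasi-likelihood), all 15 libraries in 1 fit, and called at a Benjamini-Hochberg adjusted p under 0.05. Of the 11 rows, 9 passed the filter on low counts, and Hoxa13 and the shorter Hoxa3 model did not.

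**Figure D1:**
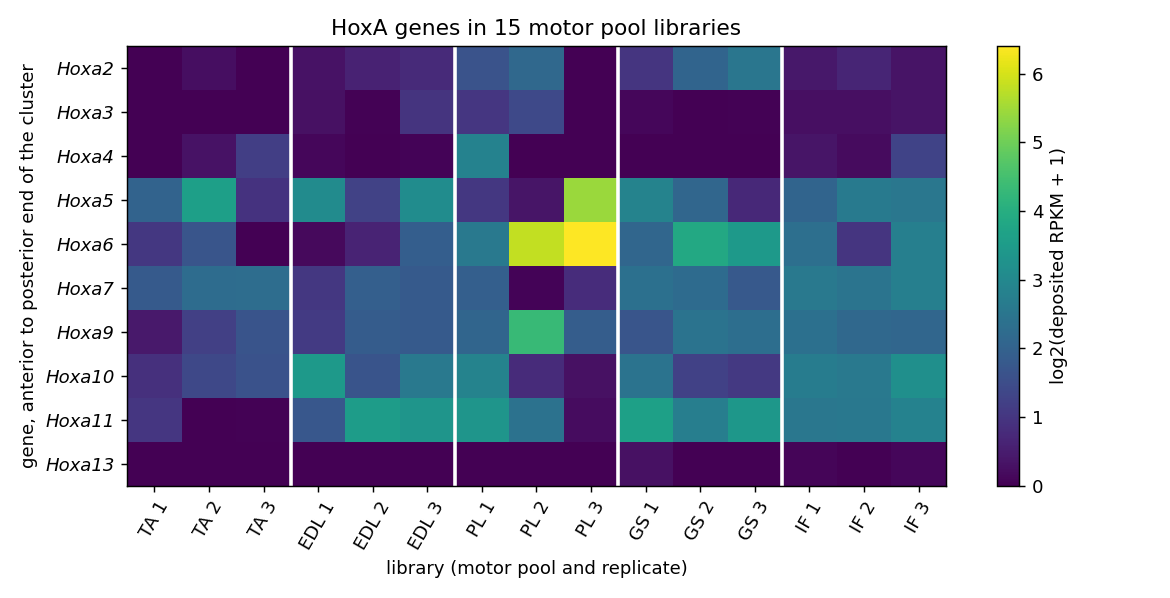
Colour gives log2(deposited RPKM + 1) for the 10 HoxA genes (rows, in cluster order, Hoxa3 by its longer model) in 15 libraries (columns, 3 per pool, white lines between pools). The brightest cells are Hoxa6 in PL 3 and PL 2, at 83.5 and 54.9 RPKM, and Hoxa5 in PL 3, at 42.6 RPKM.

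Across all 5 pools at once, 1 of the 9 tested genes, Hoxa6, differed (edgeR adjusted p = 0.028), against 1.31% of all tested genes. At an unadjusted p under 0.05 there were 5 of 9, against 15.5% of all genes. For PL against the other 4 pools, 3 of 9 were called, against 4.87% of all genes in either direction and 4.50% higher in PL. The median log2 difference was 2.47 over the 9 genes and -0.06 over all tested genes. The median of the 9 was 1.33 without PL 2, 1.03 with limma voom, 1.05 with PL 1 or with PL 2 as the only PL library, and -3.20 with PL 3 as the only one. The 9 tested genes are those that passed the filter, and PL supplied most of the reads of Hoxa3, Hoxa4 and Hoxa6.

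Hoxa2, which patterns the hindbrain and is the most anterior of the set, was low in all pools. Its level was 7.26, 18.5 and 0 CPM in PL 1, PL 2 and PL 3, and 2.78, 11.4 and 17.5 CPM in the 3 GS libraries. TA had 4 reads in all, in TA 2 (0.722 CPM). The order of mean levels was GS, PL, EDL, IF and TA. The libraries of neighbouring pools in that order overlapped, except IF and TA, at 0.723 to 1.75 CPM and 0 to 0.722 CPM. The nearest libraries of these pools held 5 reads (IF 3) and 4 reads (TA 2), a gap within counting error. Hoxa2 did not pass the test in PL (log2 difference 2.55 ± 1.10 (SE), edgeR adjusted p = 0.178) or across the pools (adjusted p = 0.296).

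Hoxa3, also a gene of the hindbrain and neck, had no read in any TA library. Its longer model stood at 12.8, 31.6 and 0 CPM in PL 1, PL 2 and PL 3. EDL had 2.66, 0.339 and 9.66 CPM, GS had 0.877, 0 and 0.326 CPM, and IF had 2.04, 2.12 and 2.75 CPM. PL 1 and PL 2 were thus above all 12 libraries of the other pools, and PL 3 was at 0, which allows up to 0.662 CPM at 3 reads. In the order of means PL, EDL, IF, GS and TA, the libraries of neighbours overlapped except those of IF and GS. The mean of PL was 14.8 ± 15.9 CPM, 3.51 times that of EDL, 6.43 times that of IF and at least 84.5-fold higher than TA at 3 reads over the pool. Hoxa3 passed the test in PL (edgeR adjusted p = 0.0294), but the fitted fold depends on the pool at 0 and is not given. The call was lost without PL 2 (adjusted p = 0.156), without EDL 1, EDL 2, GS 3 or any single IF library, with limma voom (adjusted p = 0.277) and with the replicate number as a block (edgeR adjusted p = 0.16). The shorter model had 46 reads in PL 1, 2 in IF 2 and 5 in IF 3.

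Hoxa4, which acts in the hindbrain and at brachial levels, was high in a single library. PL 1 had 178 reads (19.3 CPM), and PL 2 and PL 3 had none. The next highest libraries were TA 3 at 4.92 CPM and IF 3 at 3.62 CPM, EDL did not exceed 0.232 CPM, and no GS library had a read. The order of means was PL, TA, IF, EDL and GS, and the libraries of neighbours overlapped except those of IF and EDL. The nearest libraries of these pools held 3 reads (IF 2) and 2 reads (EDL 1), a gap within counting error. Hoxa4 did not pass the test in PL (edgeR adjusted p = 0.0811), and the mean of PL was at least 40.4-fold higher than GS at 3 reads over the pool.

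Hoxa5, known for its part in phrenic and brachial motor neurons, had reads in all 15 libraries. The PL libraries ran from the lowest to the highest of all: 3.90, 1.60 and 254 CPM in PL 1, PL 2 and PL 3. TA had 14.4, 47.7 and 4.04 CPM, EDL 26.0, 4.41 and 23.3 CPM, GS 18.7, 12.6 and 2.61 CPM, and IF 9.16, 16.1 and 14.2 CPM. The pools other than PL overlapped each other throughout, with means between 11.3 and 22 CPM. Hoxa5 did not pass the test in PL (log2 difference 2.47 ± 0.90, edgeR adjusted p = 0.119), and PL 3 was 15.8 times the mean of the 12 other libraries while PL 2 was 0.0992 times that mean.

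Hoxa6, a factor of brachial motor neurons of the limb, was the member called across the 5 pools. Its level was 10.6 CPM in PL 1, 177 CPM in PL 2 and 287 CPM in PL 3. The GS libraries were at 5.70, 29.6 and 22.7 CPM, IF at 6.82, 1.75 and 9.84 CPM, TA at 2.88, 5.42 and 0 CPM, and EDL at 0.232, 1.02 and 4.89 CPM. PL 2 and PL 3 were 23.3 and 37.9 times the mean of the 12 libraries of the other pools, and PL 1 was 1.40 times that mean and lay within their range. The mean CPM of PL was 8.17 times that of GS, 25.8 times that of IF, 57.1 times that of TA and 77.2 times that of EDL. In the order PL, GS, IF, TA and EDL all neighbours overlapped. PL did not pass the test against GS, IF, TA or EDL alone (edgeR adjusted p = 0.3, 0.118, 0.105 and 0.158). Against the other 4 pools together, Hoxa6 was higher in PL by 4.95 ± 0.82 on the log2 scale (edgeR adjusted p = 0.00302).

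The call for Hoxa6 in PL held when any 1 of the 15 libraries was left out, with log2 differences of 4.19 to 5.46 and adjusted p of 0.000541 to 0.0144. With limma voom the adjusted p was 0.063. With PL 1 as the only PL library, the difference was 1.05 on the log2 scale and the adjusted p was 1. The call across the 5 pools was lost in 7 of the 15 fits that left out a library, those without TA 1, EDL 1, EDL 2, PL 3, IF 1, IF 2 or IF 3, where the adjusted p reached 0.0866. Markers of motor neurons and of other cell types were summed in the same libraries. In PL, 2 of 9 motor neuron, 2 of 10 oligodendrocyte and 1 of 6 endothelial markers were called higher, against 4.50% of all genes. The oligodendrocyte and endothelial sums exceeded the range of the other pools in PL 2 alone, and the motor neuron sum did so in each PL library. The summed CPM of 10 oligodendrocyte markers was 434, 2350 and 728 in PL 1, PL 2 and PL 3, against 224 to 1540 in the other 12, and that of 6 endothelial markers was 41.6, 684 and 22.7, against 13.1 to 103. The 10 interneuron markers summed to 189, 264 and 374 CPM in PL and to 34.7 to 254 CPM elsewhere, with Gata3 and Lbx1 at 0 in all libraries and Pax2 and En1 at 0 in PL. The sums were 5530 to 6910 CPM in PL and 3510 to 5520 CPM elsewhere for 9 motor neuron markers, of which Isl1 was at 0 in PL, and 1850 to 2680 against 1190 to 3440 CPM for 8 astrocyte markers. For 6 microglia markers they were 10.5 to 126 against 1.97 to 114 CPM, with Aif1 and C1qa at 0 in PL, and for 7 fibroblast and meninges markers 6.71 to 95.4 against 7.83 to 255 CPM, with Col3a1 at 0 in PL. The part of these cells in the HoxA levels was not tested.

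**Figure D2:**
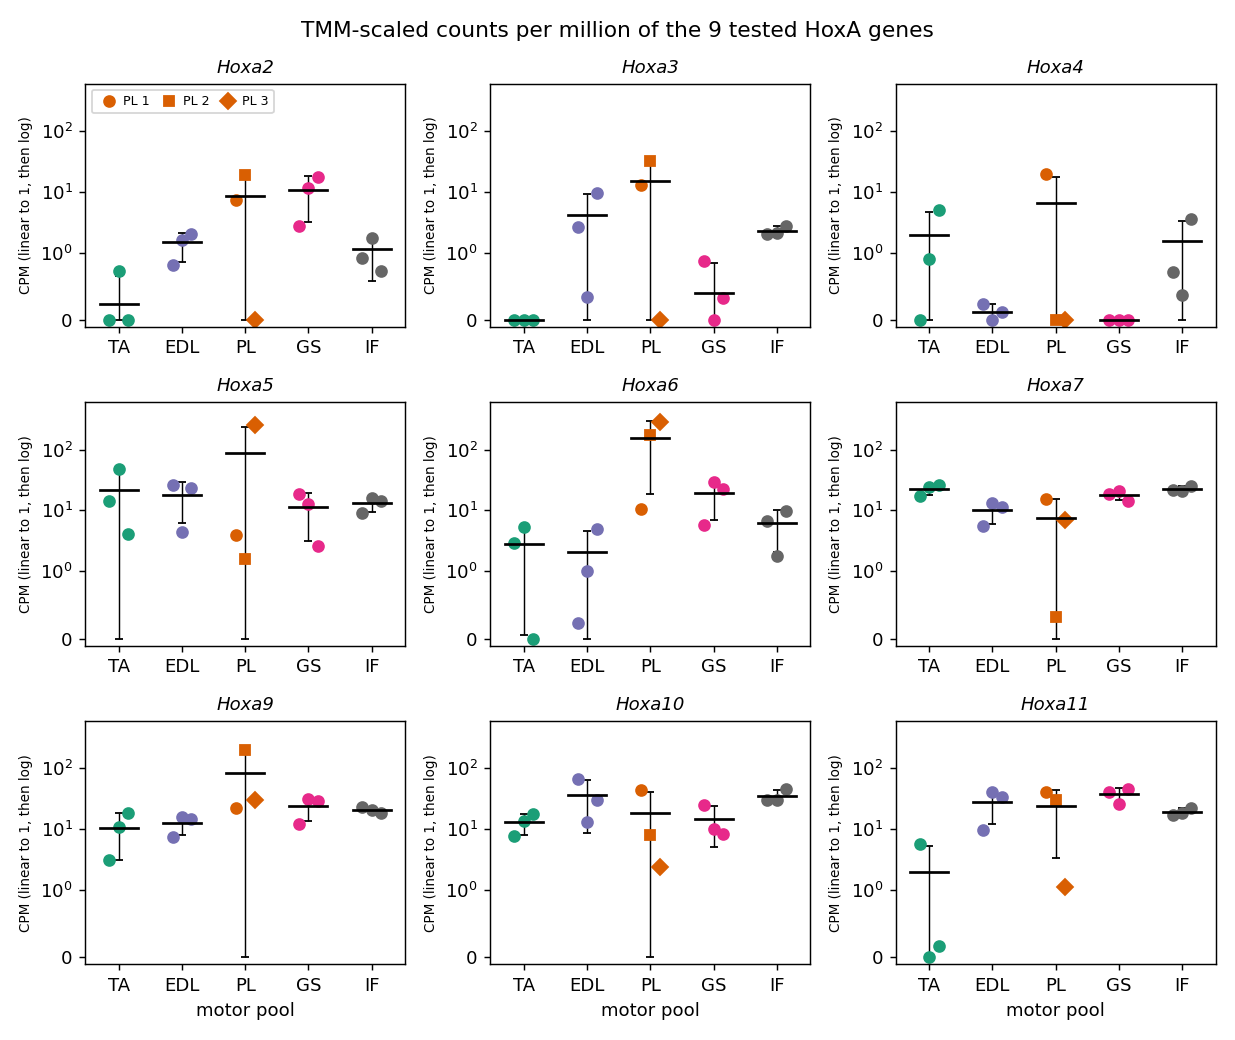
Each panel shows 1 tested HoxA gene, with the TMM-scaled CPM of each library (points) by motor pool, on an axis that is linear to 1 and logarithmic above. Lines give the mean and bars the SD of 3 libraries, with the lower bar ended at 0, and the 3 PL libraries have their own symbols. Hoxa6 in PL 2 and PL 3 lies above all libraries of the other pools, and PL 1, at 10.6 CPM, lies among them.

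Hoxa7, of the brachial and thoracic groups, had reads in all 15 libraries. TA had 17.5, 24.0 and 26.4 CPM, GS 18.4, 20.9 and 14.4 CPM, and IF 21.9, 21.1 and 25.6 CPM. EDL had 5.45, 13.2 and 11.5 CPM, and in PL 1, PL 2 and PL 3 the level was 15.7, 0.319 and 6.84 CPM. The single read in PL 2 is the lowest value of the gene in any library. Among neighbours in the order IF, TA, GS, EDL and PL, GS and EDL lay apart (14.4 to 20.9 against 5.45 to 13.2 CPM), and that pair did not pass the test (edgeR adjusted p = 1). Hoxa7 did not pass in PL either (log2 difference -1.18 ± 0.83, adjusted p = 0.431).

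Hoxa9, a factor of thoracic and lumbar levels, was higher in PL. Its level was 22.6, 198 and 30.7 CPM in PL 1, PL 2 and PL 3. GS had 12.3, 31.5 and 29.5 CPM, IF 22.7, 20.4 and 18.5 CPM, EDL 7.41, 15.7 and 14.4 CPM, and TA 3.05, 10.7 and 18.1 CPM. PL 2 was 6.29 times the highest library of the other pools, and PL 1 and PL 3 lay within the range of those pools. The ratio of mean CPM of PL was 3.43 to GS, 4.08 to IF, 6.69 to EDL and 7.90 to TA. The difference of PL from the other 4 pools was 2.38 ± 0.60 on the log2 scale (edgeR adjusted p = 0.0273). Without PL 2 it was 0.73 with an adjusted p of 0.615, and the call was also lost without EDL 1, EDL 3, GS 1 or any single IF library. It was lost with limma voom (adjusted p = 0.192) and with the replicate number as a block (edgeR adjusted p = 0.131). Among the lower pools, IF (18.5 to 22.7 CPM) and EDL (7.41 to 15.7 CPM) were neighbours that did not overlap, with an edgeR adjusted p of 1 for that pair.

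Hoxa10, a factor of lumbar motor neurons and of hindlimb pool identity, had reads in every library. EDL had 67.8, 13.1 and 29.6 CPM and IF had 30.6, 30.2 and 46.1 CPM. PL 1, PL 2 and PL 3 had 44.1, 7.99 and 2.43 CPM, GS had 25.0, 10.04 and 8.16 CPM, and TA had 7.80, 13.4 and 17.6 CPM. PL 3 was the lowest of all 15 libraries and PL 1 the third highest. All neighbours in the order EDL, IF, PL, GS and TA overlapped, and Hoxa10 passed no test (edgeR adjusted p = 0.734 across the pools and 0.873 in PL).

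Hoxa11, a lumbar and limb patterning gene, was lowest in TA. The TA libraries had 34, 0 and 1 reads, which are 5.77, 0 and 0.176 CPM. GS had 41.1, 25.9 and 45.2 CPM, EDL 9.85, 40.6 and 33.7 CPM, IF 16.9, 18.6 and 22.3 CPM, and PL 1, PL 2 and PL 3 had 40.8, 29.7 and 1.10 CPM. All TA libraries lay below those of GS, EDL and IF, and PL 3 lay among them. The difference of TA from the other 4 pools was -3.72 ± 1.27 on the log2 scale, with an unadjusted p of 0.00897 and an edgeR adjusted p of 0.236. Under DESeq2 the adjusted p of that contrast was 0.00426. Hoxa13, the most posterior gene, which acts in the distal limb and tail, had 10 reads in all: 6 in GS 1, 2 in IF 1 and 2 in IF 3.

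The 3 PL libraries differed in which HoxA genes lay outside the range of the other pools. PL 1 lay above the 12 libraries of the other pools for 2 of the 9 tested genes, Hoxa3 and Hoxa4, where 7.61% of all tested genes did so. PL 2 lay above them for 4 (Hoxa2, Hoxa3, Hoxa6 and Hoxa9) and below for 2 (Hoxa5 and Hoxa7), with 17.9% of all genes above and 25.9% below. PL 3 lay above for Hoxa5 and Hoxa6 and below for Hoxa10, with 18.9% of all genes above and 28.8% below, and was at 0 for Hoxa2, Hoxa3 and Hoxa4, where 29.2% of all genes were at 0. The counts of PL 3 above the other pools and at 0 are thus near the shares of all genes. For Hoxa2, Hoxa3, Hoxa4, Hoxa6 and Hoxa11 the lowest level in the other pools was 0. No PL library could lie below them for those genes, so the counts below are not set against the share of all genes. Hoxa3 was above in both PL 1 and PL 2, and Hoxa6 in both PL 2 and PL 3. For each of the 9 tested genes except Hoxa10, the PL libraries spanned a wider range of CPM than those of any other pool. For Hoxa10 the EDL libraries spanned the widest range. No pool had all of its libraries above or all below the other 12 for any of the 9 genes.

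**Figure D3:**
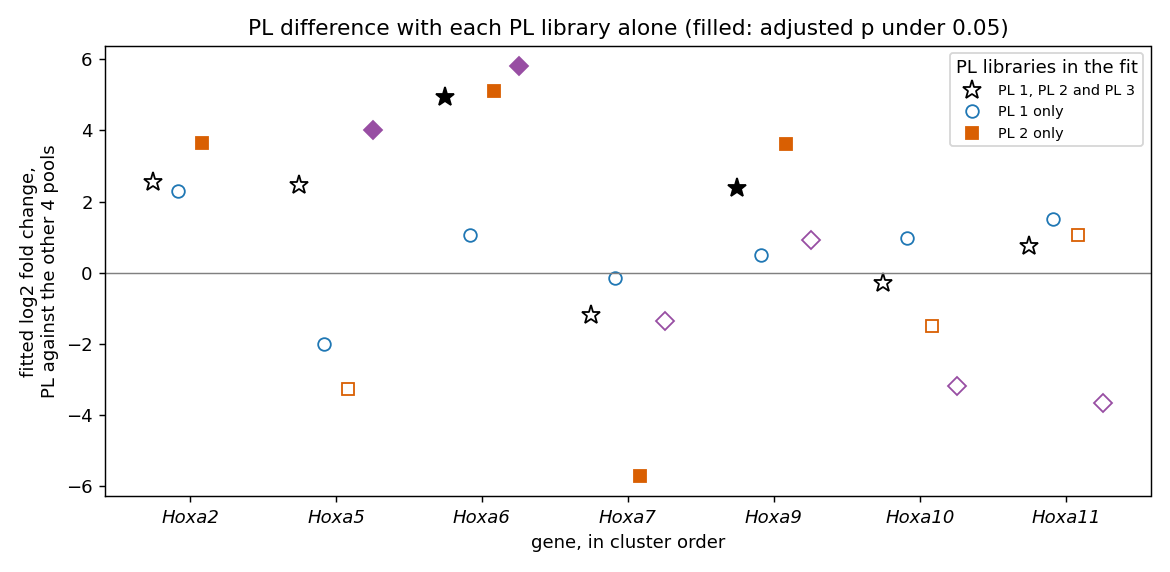
The y axis gives the fitted log2 difference of PL from the other 4 pools, with all 3 PL libraries or 1 of them in the fit, and filled symbols mark an adjusted p under 0.05. Hoxa3 and Hoxa4 are left out, as is Hoxa2 with PL 3 only, because a group at 0 reads has no fold size. Hoxa6 is positive in all 4 fits (1.05 with PL 1 only), whereas Hoxa5 is 4.02 with PL 3 only and -3.28 with PL 2 only.

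Fits with a single PL library, where that library is assumed to vary like the libraries of the other pools, differed in the genes they called. With PL 1 alone no HoxA gene was called for PL, and with 10 genes called of all tested the fit called few genes of any kind. With PL 2 alone, Hoxa2 (log2 difference 3.65), Hoxa3, Hoxa6 (5.10) and Hoxa9 (3.61) were called higher and Hoxa7 (-5.71) lower. With PL 3 alone, Hoxa5 (4.02) and Hoxa6 (5.80) were called higher. Those fits called 3210 and 4297 genes in all, so the calls of PL 2 or PL 3 alone stand among many. Hoxa6 was the gene called with either of them.

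Levels of different genes can be set side by side per length of the gene model, as RPKM. In PL 2 and PL 3, Hoxa6 held 65.1% and 64.3% of the summed HoxA RPKM, and the sums were 84.2 and 130 RPKM. In PL 1 the sum was 38.2 RPKM and Hoxa11 led with 24%. Hoxa6 also led in GS 2 (38.6%) and GS 3 (31%), and Hoxa11 led in GS 1 (34.4%). Hoxa5 led in TA 1 and TA 2 (34.8% and 54.5%) and Hoxa7 in TA 3 (38%). In EDL the leading genes were Hoxa10 (44.5% in EDL 1) and Hoxa11 (51.1% in EDL 2 and 29.1% in EDL 3). The IF libraries were the most even, since no gene exceeded 22.4% there. The posterior genes Hoxa9 to Hoxa13 together held 48.8% to 53.4% in IF, 53.2% to 74.3% in EDL, 32.4% to 55% in GS and 14.4% to 40.7% in TA. In PL 1, PL 2 and PL 3 they held 48.9%, 28.3% and 2.38%.

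**Figure D4:**
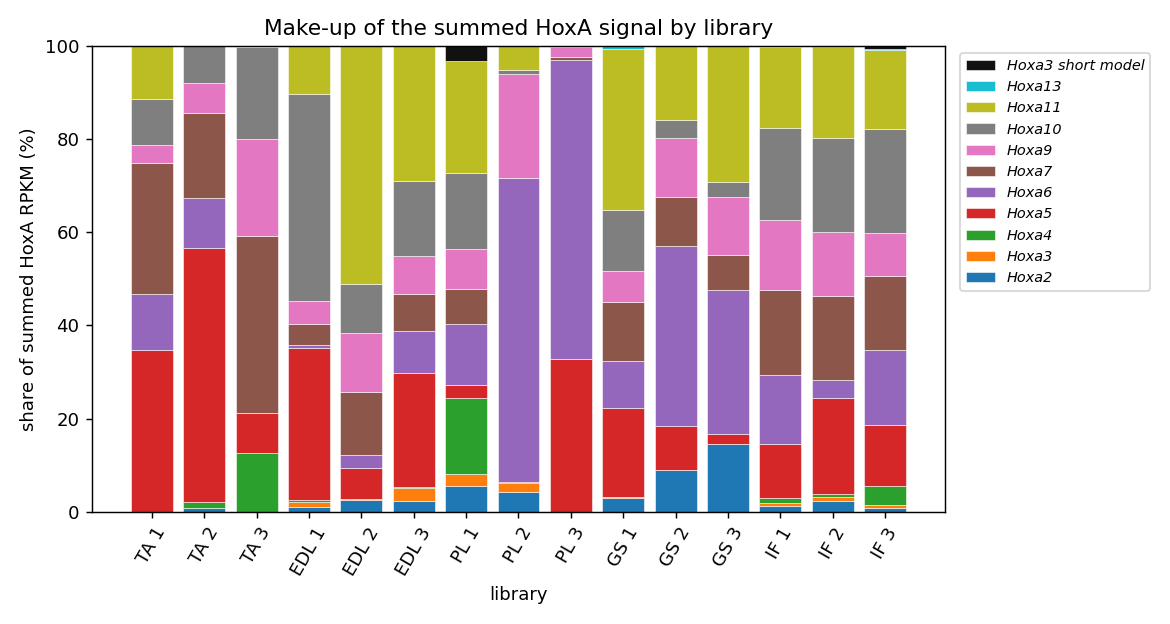
Bars give the share of each HoxA row in the summed HoxA RPKM of a library, in percent, stacked from Hoxa2 at the bottom to Hoxa13 and the shorter Hoxa3 model at the top. Hoxa6 fills 65.1% of PL 2 and 64.3% of PL 3, and no gene exceeds 22.4% in the IF libraries.

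For each of the other 4 pools against the remaining ones, 0 of 9 genes were called by edgeR. The share of all genes called was 0.418% for TA, 0.0976% for EDL, 0.126% for GS and 1.10% for IF. At an unadjusted p under 0.05 there were 3 of 9 in TA (Hoxa2, Hoxa3 and Hoxa11, all lower there), 2 in EDL (Hoxa3 and Hoxa6), 2 in GS (Hoxa2 and Hoxa4) and 0 in IF. The share of all genes under that p was 12.3% for TA, 6.42% for EDL, 5.82% for GS and 9.38% for IF. DESeq2 called 3 of these: Hoxa3 and Hoxa11 lower in TA and Hoxa4 lower in GS, where no GS library had a read. The share of all genes called by DESeq2 was 3.03% for TA and 0.397% for GS. Limma voom called none of the HoxA genes.

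In the 10 pairs of pools, 0 of 90 tests of a HoxA gene were called by edgeR, 24 had an unadjusted p under 0.05 (10.4% of the tests of all genes did), DESeq2 called 14 and limma voom 0. DESeq2 called 0.446% to 7.43% of all genes in these pairs. Its calls included Hoxa4 in every pair with GS, which had no read of that gene, and EDL had 3 reads in all. The share of all genes called by edgeR was 0.0907% for TA against EDL, 0.230% for TA against PL, 0.0628% for TA against GS and 0.628% for TA against IF. It was 0.0488% for EDL against PL, 0.0697% for EDL against GS and 0.202% for EDL against IF. It was 0.119% for PL against GS, 0.900% for PL against IF and 0.126% for GS against IF. With PL 1 left out, edgeR called 6 of the 90: Hoxa3, Hoxa6 and Hoxa9 between TA and PL, Hoxa6 and Hoxa9 between EDL and PL, and Hoxa6 between PL and IF. That fit called 12% of all genes between TA and PL, 11.9% between EDL and PL and 13.3% between PL and IF. In the authors' deposited table of genes higher in PL than in EDL, Hoxa6 is given with a 57.5-fold difference, 52.2 against 0.909 RPKM and an adjusted p of 0.002172. In the authors' deposited table of genes higher in PL than in TA, it is given with 41.5-fold, 43.7 against 1.05 RPKM and 0.02011. Hoxa6 was the HoxA gene found in any of the 16 deposited lists.

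The spread between libraries of a pool was read as the coefficient of variation of CPM, over genes with a mean of at least 5 CPM in the pool. Its median over the HoxA genes was 54.5% in TA, 57.5% in EDL, 109% in PL, 63.6% in GS and 19.8% in IF. Over all such genes, in the same order of pools, it was 56%, 38.8%, 86.1%, 41.9% and 18%. IF held the evenest members, Hoxa9 at 10.2% and Hoxa7 at 10.5%. In PL the lowest was Hoxa11 at 85.8%.

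The cluster also holds noncoding rows. Of 14 further rows within 50 kb of the members, 6 had no read, among them Mir196b, and 4 were tested. 2700086A05Rik (chr6:52125216-52165076), on the plus strand, overlaps the models of Hoxa3 to Hoxa7, and had 17.4, 46.3 and 61.3 CPM in PL 1, PL 2 and PL 3. It had 17.1, 10.3 and 20.8 CPM in TA, 8.19, 16 and 5.22 CPM in GS, 9.37, 11.4 and 11.1 CPM in IF, and 1.27, 5.77 and 3.14 CPM in EDL. This row was higher in PL by 2.26 ± 0.61 on the log2 scale (edgeR adjusted p = 0.0391), with PL 2 and PL 3 above all libraries of the other pools. Without strand, its reads and those of the genes it overlaps cannot be told apart. Hoxa11as (chr6:52195051-52199795), a plus strand row that overlaps Hoxa11, had 482 reads (154 CPM) in PL 2, 3.47 CPM in PL 1 and 0.221 CPM in PL 3. Its highest level in the other pools was 19.2 CPM, in EDL 1, and it did not pass the test in PL (edgeR adjusted p = 0.0651).

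The other Hox clusters gave few calls. Of 8 HoxB, 7 HoxC and 5 HoxD genes tested, 1 passed the test across the 5 pools, a HoxC gene. The lowest adjusted p of any of them in PL was 0.138 (edgeR, Hoxd11), and the median log2 difference in PL was -3.56 for HoxB, -1.35 for HoxC and -0.98 for HoxD, against 2.47 for HoxA. The HoxB median rests on genes near 0 in PL. Hoxb5 had no read there, and Hoxb2, Hoxb6, Hoxb8 and Hoxb9 averaged 0.0361 to 0.253 CPM. The HoxA median holds Hoxa3 and Hoxa4, which had no read in some pool, and was -3.2 with PL 3 as the only PL library. These medians are thus no measure of size between clusters. The called gene was Hoxc10 (edgeR adjusted p = 0.00134), a paralog of Hoxa10, which averaged 88.9 ± 19.5 RPKM in TA, 62.4 ± 10.5 in EDL, 47.1 ± 23.7 in PL, 82.9 ± 44.9 in GS and 4.30 ± 0.98 in IF (SD, n = 3). Hoxc10 exceeded Hoxa10 (1.51 to 6.21 RPKM) in every pool mean except IF, where Hoxa10 stood at 6.21 ± 1.67 RPKM. The third paralog, Hoxd10, averaged 5.12 RPKM in PL to 30.7 RPKM in IF.

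The paralogs of Hoxa6 and Hoxa9 had low levels per length in PL. Hoxb6 and Hoxc6 averaged 0.0653 and 0.232 RPKM in PL, where Hoxa6 averaged 47.8 ± 39.7 RPKM. Hoxb9, Hoxc9 and Hoxd9 averaged 0.0514, 0.302 and 1.37 RPKM in PL, where Hoxa9 averaged 8.26 ± 9.11 RPKM. Hoxb5 and Hoxc5 had no read in PL. In IF, Hoxa9, Hoxb9 and Hoxd9 were near each other at 3.64, 3.64 and 3.63 RPKM, but Hoxc9 averaged 0.108 RPKM. Hoxa6 averaged 3.62 RPKM in IF, against 0.894 RPKM for Hoxb6 and 0.344 RPKM for Hoxc6.

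Among the partners of Hox proteins, 1 of 9 tested Pbx, Meis and Pknox genes passed across the pools. It was Meis2 (edgeR adjusted p = 0.00538), with mean CPM of 142 in TA, 203 in EDL, 124 in PL, 25.6 in GS and 7.93 in IF. The lowest adjusted p of the 9 in PL was 0.089, also for Meis2. Of 17 tested chromatin and upstream regulators of Hox genes, which include Polycomb and trithorax group members, the lowest adjusted p across the pools was 0.162 (edgeR), and 1 was higher in PL, against 4.50% of all genes. Both were for Kdm6a, which removes the Polycomb methyl mark from histone H3. It stood at 50.8, 283 and 26.3 CPM in PL 1, PL 2 and PL 3 and at 6.86 to 38.3 CPM in the other 12 libraries, so PL 3 lay within their range (log2 difference 2.46 ± 0.58, edgeR adjusted p = 0.0201). The caudal genes Cdx1, Cdx2 and Cdx4, which activate Hox genes in the early embryo, had no read in any library.

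For the 7 members with reads in at least 12 libraries, the tested genes outside the Hox clusters with the most similar pattern were found by Pearson's r of log2(CPM + 1) over the 15 libraries, and again without PL 2 and PL 3. These r values are a description over libraries that share depth and composition. Prdm11 was most like Hoxa6 (r = 0.93, and 0.786 without PL 2 and PL 3), Aff3 most like Hoxa9 (0.94 and 0.841), and Vps33b most like Hoxa5 (0.902 and 0.842). Fam149a was most like Hoxa2 (0.858 and 0.819), 2510003E04Rik most like Hoxa7 (0.945 and 0.823), Rbm3 most like Hoxa10 (0.928 and 0.886) and Cnnm4 most like Hoxa11 (0.926 and 0.91). Between neighbours in the cluster, r was 0.181 for Hoxa5 and Hoxa6, -0.522 for Hoxa6 and Hoxa7, -0.602 for Hoxa7 and Hoxa9, -0.292 for Hoxa9 and Hoxa10, and 0.308 for Hoxa10 and Hoxa11. Without PL 2 and PL 3 the first 4 of these changed sign, to -0.105, 0.274, 0.31 and 0.0406, and that of Hoxa10 and Hoxa11 was 0.172.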

How the data were processed

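RNA from laser-captured, CTB-555 traced motor neurons was amplified with a kit that does not mark strand and sequenced as single-end reads. Per the submitters' processing notes, the authors used Bowtie 0.12.9, the mm9 build and DESeq, whose version is not given. The deposited table holds whole-number counts per gene and RPKM (reads scaled by gene model length and by depth). It has 16 cells below 0, in 4 genes, which were left out, so the deposited columns that hold them were recorded as a score and otherwise used as counts or RPKM. The authors' deposited lists of pairwise differences give a ratio, p-values and RPKM. How reads were assigned to overlapping models is not given in the sources used here.

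Counts were tested with edgeR 4.0.16 in R 4.3.3 (glmQLFit and glmQLFTest, TMM, filterByExpr), 14340 genes, adjusted p under 0.05. Contrasts covered the 5 pools together, each pool against the other 4, and 10 pairs. Alternatives were DESeq2 1.42.0, limma 3.58.1 voom, other scalings and filters, a replicate block and fits without single libraries; fits with PL 2 or PL 3 as the only PL library were chosen after seeing the data. The contrast of PL with the other 4 pools was tested on simulated counts in which all libraries varied alike. That simulation did not hold the many genes at 0 of PL 2 and PL 3, so it does not test the calls under them. Limits for 0 reads use 3 counts and cover counting error only. Libraries of a pool differed beyond sampling noise (chi-square over degrees of freedom at least 11.4), so none was merged. The members and lists were chosen with earlier results of these data known. Genes named besides the members are locus rows within 50 kb, called list genes, paralogs and, per member, the most similar genes (3 ranked). Promoters came from RefSeq. In the motor neuron list 1 gene was not analysed here, and some genes that the naming rule selects are not reported here.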

Additional observations from a re-analysis of the deposited data

Results flagged for a closer look

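2 signals lay in rows that the tests did not cover, because the rows failed the filter on low counts. The shorter Hoxa3 model had 46 reads in PL 1, with 7 reads over the other 14 libraries. Hoxa13 had 6 reads in GS 1, with 4 reads over the other 14 libraries. Both exceed the 3 counts that a count of 0 allows, and each rests on 1 library.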

How the results depend on the processing

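Calls depended on the tool and on the PL libraries. Across the 5 pools 1 HoxA gene was called by edgeR, 3 by DESeq2, 0 by limma voom and 2 without the filter. With a replicate block 0 were called, and 0 to 1 when 1 library was left out. For 1 pool against the other 4, the 3 calls were 7 by DESeq2, 0 by limma voom and 7 without the filter. They were 1 with the block, and 1 to 4 when 1 library was left out. In the 10 pairs, 0 became 14 by DESeq2, 4 without the filter, and 0 to 6 when 1 library was left out. Genes tested were 9, with 11 without the filter and 8 under the stricter one. The fitted Hoxa3 difference in PL turned to -4.87 with PL 3 alone (edgeR adjusted p = 1), but PL 3 and TA had no read of it, so that value is no measure of size. The Hoxa6 call in PL held with the block (log2 4.51, edgeR adjusted p = 0.0212) and was lost with limma voom (4, adjusted p = 0.063). The calls of Hoxa9 in PL were lost without EDL 1, EDL 3, PL 2, GS 1, IF 1, IF 2 or IF 3 (log2 0.73 to 2.79 over the 15 fits), and of Hoxa3 without EDL 1, EDL 2, PL 2, GS 3, IF 1, IF 2 or IF 3; the cause was not tested. Over all genes, calls across the pools were 188 by edgeR, 1175 by DESeq2, 310 by limma voom and 1425 without the filter, and for PL they were 698, 1717, 170 and 1485, with 143 under the block and 10 without PL 2 and PL 3. Leaving out 1 library gave 66 to 1211 and 360 to 3210. Replicate numbers did not pair the libraries: deviations of same-numbered libraries correlated at -0.059 to 0.111, and 4 of 15 libraries correlated best with their own number. Of 55 pool levels, 4 moved by more than 1 SD with unscaled library totals and 0 with DESeq2 size factors. Relative to the mean of the pools, 7 of 55 moved with the deposited RPKM. A level below about 1 CPM rests on few reads.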
